A study of Mus musculus with 9 samples.

Results

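Clustered Zfp genes are the zinc finger genes of the mouse that sit side by side in tandem arrays. They were taken here as the protein-coding genes of mm10 with a symbol of Zfp and a number whose gene body lies within 100 kb of another such gene on the same chromosome. Of 21900 protein-coding genes in the annotation, 367 carry such a symbol and 212 have a neighbour of this kind, while 153 others, called isolated Zfp genes below, do not. Zfp42 and Zfp281, which the rule leaves out by name, have no such neighbour, so the exclusion did not alter the 212 members. The study immunoprecipitated m6A-containing mRNA fragments from mouse embryonic stem cells (mESCs) and sequenced them (m6A-RIP-seq), to ask where methylation depends on Zc3h13, a partner of the methyltransferase complex. Of its 9 libraries, 2 immunoprecipitations and 1 input came from each of wild-type, Mettl3KO and Zc3h13KO cells. All share the background labelled Rosa26:CRE, Bir ligase, so the wild-type cells carry the Cre and the biotin ligase as well, and all immunoprecipitations used the same anti-m6A antibody. The results are from the peak lists of the 2 wild-type immunoprecipitations (replicates 1 and 2), and the other 7 libraries were not analysed here. Nothing in the labels says that both came from separate cultures.

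Most genes of this kind encode DNA-binding proteins with an array of C2H2 zinc fingers, and many add a KRAB domain. The KRAB domain recruits the co-repressor Trim28, which brings in the histone methyltransferase Setdb1 and heterochromatin proteins, and in mESCs this pathway is known for silencing retroelements and protecting imprinted loci. The genes multiply by tandem duplication, so that neighbours are often close copies. As a rule a long last exon encodes the whole finger array. m6A is set on mRNA by the Mettl3/Mettl14 heterodimer and is known to favour long internal exons, last exons and the surroundings of the stop codon.

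The lists differed in length before any gene was looked at, with 22531 peaks in replicate 1 and 5040 in replicate 2, and the single peaks in the first list are named after a sample H4, not after wild-type cells as in the second, so that the place of the first rests on the sample label alone. The authors called each immunoprecipitation alone against input, and read counts do not come with the lists, so the depth is unknown and each result is given for each replicate alone as well as for both. Of 7 genes that mark mESCs, 6 had a peak in replicate 1 (Pou5f1 did not) and only Tbx3 had one in both, whereas of 5 fibroblast genes Pdgfra had one in both, Thy1 in replicate 1, and Col1a1, Col1a2 and Vim had none. A peak list gives no expression level, so neither these markers nor a missing peak tells whether a gene was transcribed.

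Many of the clustered Zfp genes carried m6A peaks that were called in both wild-type replicates. A peak lay within 500 bp of the gene body in both lists for 79 of 212 members, or 37.3% (95% exact binomial interval 30.7% to 44.2%, which covers counting error only), while 16.1% of all protein-coding genes had one. In replicate 1 alone 182 members (85.8%, interval 80.4% to 90.2%) had a peak, against 41.3% of all protein-coding genes. In replicate 2 alone 80 members (37.7%, interval 31.2% to 44.6%) had one, against 16.9%. The intervals of the clustered genes thus lay above the background in each list, although neighbouring genes are often copies of each other and are not independent. Isolated Zfp genes were close to the clustered ones, with 57 of 153 (37.3%, interval 29.6% to 45.4%) in both lists, 119 (77.8%, interval 70.4% to 84.1%) in replicate 1 and 59 (38.6%) in replicate 2. The intervals of clustered and isolated genes overlapped in every list, so a peak was not shown to be particular to genes with a neighbour. Setting the neighbour distance at 50 kb gave 73 of 190 genes in both lists, and 200 kb gave 85 of 230. With 1 group of 2 lists, no test between conditions was possible.

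**Figure D1:**
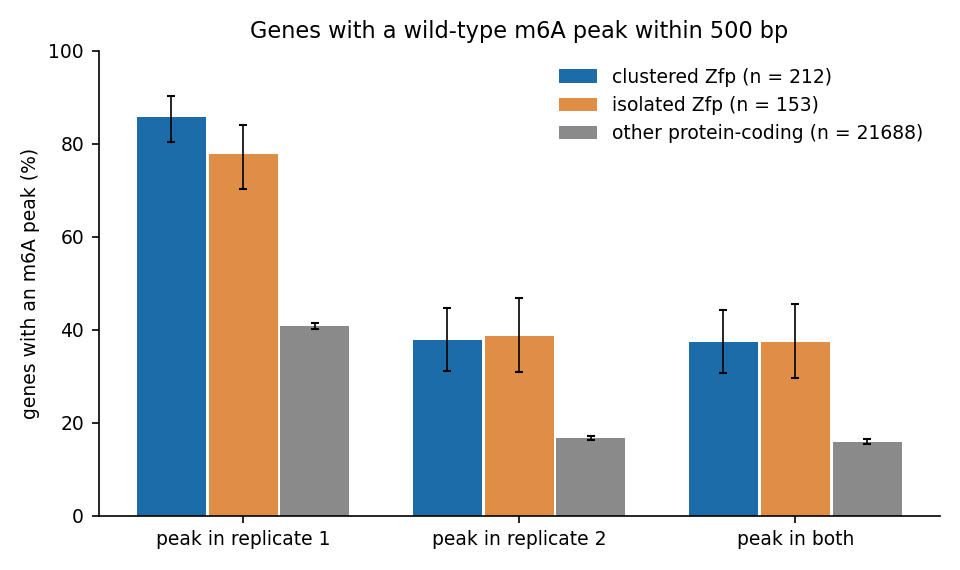
Share of genes with an m6A peak within 500 bp of the gene body, in percent, in replicate 1, in replicate 2 and in both, for 212 clustered Zfp genes, 153 isolated Zfp genes and 21688 protein-coding genes that are not clustered Zfp genes. Error bars are 95% exact binomial intervals for counting error; both kinds of Zfp gene stand above the other genes in all 3 comparisons, and their own intervals overlap.

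Sorted by state, 79 members had a peak in both lists, 103 in replicate 1 only, 1 in replicate 2 only and 29 in neither. Of the 182 members with a peak in replicate 1, 43.4% (interval 36.1% to 50.9%) also had one in replicate 2, near the 39.0% of the genes that are not clustered Zfp genes. Of the 80 members in replicate 2, 79 were also in replicate 1, and the exception was Zfp583, with a single peak of fold enrichment 5.06 and −log10 q 3.41. Replicate 2 therefore added almost no member that the longer list lacked. Several peaks per gene were also common, since 56 members (26.4%) had at least 3 in replicate 1, against 13.4% of all protein-coding genes. Here the isolated Zfp genes were higher still, at 60 of 153 (39.2%), and their median gene body was longer, 20613 bp against 15819 bp.

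Peaks at the clustered genes had a larger median width than those at other protein-coding genes in replicate 1 and a lower median fold enrichment in both lists, and peaks at isolated Zfp genes were alike. Replicate 1 had 398 peaks at members, with a median width of 543 bp against 450 bp at the other protein-coding genes, and replicate 2 had 116, with 456 bp against 449 bp, a difference of little size. At isolated Zfp genes the median widths were 532 bp and 482 bp. Their median fold enrichment over input was 4.87 in replicate 1 (quartiles 3.47 and 7.31) against 5.19, and 5.82 in replicate 2 against 6.32, while isolated Zfp genes had 4.61 and 5.68. The median −log10 q was higher than at other genes in replicate 1, 37.1 against 30.9, and lower in replicate 2, 6.66 against 7.55. So the order of members and other genes was the same in both lists for fold enrichment, and not for the q-value. Of the 116 replicate 2 peaks, 113 (97.4%, interval 92.6% to 99.5%) overlapped a replicate 1 peak by at least 1 bp, against 91.9% at the other protein-coding genes and 96.5% at isolated Zfp genes. Asking for an overlap of 50% of each peak lowered the share at members to 53.4%.

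Among the 79 members in both lists, the highest fold enrichment per gene ran from 2.84 to 32.6 in replicate 1 with a median of 6.65, and from 2.11 to 22.1 in replicate 2 with a median of 6.61. It was higher in replicate 1 for 43 members and in replicate 2 for 36, so neither list was above the other throughout. The highest peaks of the 2 lists overlapped each other in 53 of the 79 genes. In the other 26 the values below belong to different sites of the gene. Any peaks of both lists overlapped in 78 members, the exception being Zfp428, at 2.84 in replicate 1 and 9.17 in replicate 2. Members with a peak in replicate 1 only had a median highest fold enrichment of 5.53 there, and their median highest −log10 q was 50.4 against 96.0 for the members in both.

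**Figure D2:**
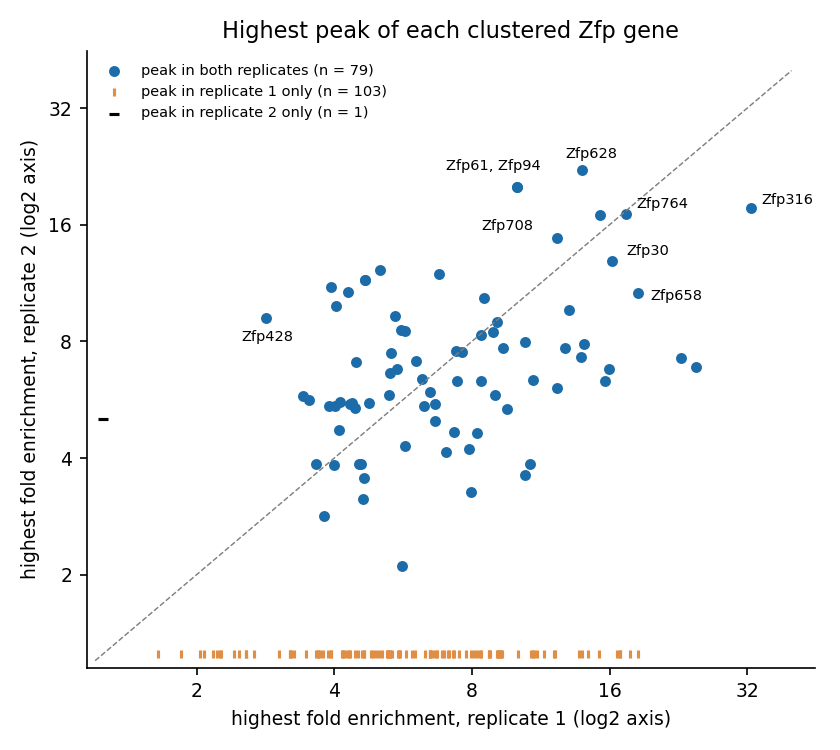
Highest fold enrichment over input of each clustered Zfp gene in replicate 1 (horizontal) and replicate 2 (vertical), both on log2 axes, with the dashed line marking equal values. The 79 blue points have a peak in both replicates; ticks along the lower edge are the 103 members with a peak in replicate 1 only, which reach 18.5, and the dash at the left is Zfp583.

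Zfp316 on chromosome 5 (143249695 to 143270031) was the most enriched member in replicate 1, while Zfp628, Zfp61 and Zfp94 exceeded it in replicate 2. Its highest peak was enriched 32.6-fold in replicate 1 and 17.6-fold in replicate 2, with −log10 q of 288.1 and 28.5. Both lists placed the summit 5240 to 5243 bp inside the 3′ end, and each had 3 peaks in the gene. The same cluster holds Zfp853, with 23.0 and 7.26, and Zfp12, so that 3 of 3 neighbours had a peak in replicate 1 and 2 of 3 in both.

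Zfp579 and Zfp628 lie near each other on chromosome 7, in a cluster of 6 members. Zfp579, a gene of only 3250 bp, had 15.2 in replicate 1 and 16.9 in replicate 2, with summits 1032 and 1026 bp from its 3′ end. Zfp628 had 13.96 and 22.1 and the highest −log10 q of any member in replicate 2, 38.8, but its peaks also lie at Nat14, whose body overlaps it, and cannot be given to one of the genes. The remaining members of the cluster that had a peak in both, Zfp524 and Zfp865, were lower, at 4.32 and 5.52 and at 4.09 and 4.72. The values of Zfp524 belong to different sites, and at the site of the 5.52 replicate 1 had 2.05.

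Zfp30 differed from most members in the place of its highest peak. That peak stood at 16.2 in the first and 12.9 in the second replicate, and both summits lay 365 bp inside the 5′ end, while another peak of replicate 1, at 7.58, lay 2011 bp from the 3′ end. Zfp658 had 18.5 and 10.6, but at different sites. At the site of the 10.6 of replicate 2, 2133 and 2136 bp from the 3′ end, Zfp658 had 6.79 in replicate 1. Another shared site of Zfp658, 3089 and 2983 bp from the 3′ end, had 2.84 and 5.01.

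Zfp61 and Zfp94 overlap each other, and 1 peak at their junction, with 10.04 in replicate 1 and 20.1 in replicate 2, was counted for both. Its summit lay 495 bp from the 3′ end of Zfp94 in replicate 1 and 496 bp in replicate 2, and 11154 and 11155 bp from that of Zfp61. The other members with the highest enrichment in both lists had closer values. Zfp446 had 13.0 and 9.63, Zfp27 had 9.08 and 8.99, and Zfp617 had 8.37 and 8.31. Both peaks of Zfp617, its only ones, begin past the 3′ end of the gene, by 37 and 67 bp, so that it had none within the body. Zfp213 (8.51 and 10.3), Zfp760 (8.91 and 8.48) and Zfp738 (10.4 and 7.96) were alike in size, but their highest peaks did not overlap between the lists. Zfp689 and Zfp647 entered by their −log10 q, with fold enrichments of 6.79 and 11.96 and of 5.04 and 12.2.

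Of the members of known role, 4 are known as repressors of retroelements, and all 4 had a peak in replicate 1, where 85.8% of all members had one. Zfp809, which targets the primer binding site of murine leukaemia viruses, had 4.67 in replicate 1 and 11.6 in replicate 2, at overlapping peaks that also lie at its neighbour Zfp599. Zfp708, which binds a family of endogenous retroviral repeats, had 12.3 and 14.7. No peak of replicate 2 at either gene is free of a neighbour, since that of Zfp708 lies in Rslcan18. Zfp932 (6.004) and Zfp819 (5.22) had peaks in replicate 1 only. Zfp568, the repressor of a placental promoter of Igf2, had 5 peaks in replicate 1, all low, with a highest fold enrichment of 2.08, and none in replicate 2. Zfp445, which guards imprinted loci, had 3.78 in replicate 1, and its neighbours Zfp660 and Zfp105 had 18.5 and 2.57, all without a peak in replicate 2.

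Other members found in replicate 1 only were as enriched as many of those in both. Zfp174 reached 17.7 with 6 peaks, Zfp758 16.9 with 8 peaks, Zfp975 16.8 and Zfp398 16.6. Of the 6 peaks of Zfp174, 3 lie in the overlap with Zfp597. Zfp397 also had 6 peaks, none above 3.69, and all 6 lie within Zscan30 as well. The member with most peaks was Zfp764, with 10 in replicate 1 and 6 in replicate 2, and 7 of the 10 lie at 9130019O22Rik or E430018J23Rik, genes inside its annotated body. Over all members, 23 peaks of replicate 1 and 9 of replicate 2 lay at another protein-coding gene that is not a member too, and 10 and 4 lay at more than 1 member. Counting only peaks near no other protein-coding gene, 73 members (34.4%, against 13.7% of all genes) remained in both lists and 175 (82.5%, against 36.7%) in replicate 1.

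Of the 12 genes of the KRAB co-repressor pathway, 7 had a peak in replicate 1 (58.3%, against 41.3% of all protein-coding genes) and 0 had one in both lists (against 16.1%). Trim28 had no peak in either list, and none of the 12 had a peak in replicate 2. Setdb1 (3.34), Atf7ip (2.59), Morc3 (6.75), Smarcad1 (2.08), Dnmt1 (4.03), Uhrf1 (6.58) and Dnmt3a (14.5) had one in replicate 1, whereas Cbx1, Cbx3, Cbx5 and Dnmt3b had none. A count of 0 of 12 allows a share of up to 25%, taking 3 counts as the limit, so a difference from the background of 16.1% was not detectable with 12 genes. Zfp42 (1.88) and Zfp281 (3.73), zinc finger factors of the pluripotency network, also had peaks in replicate 1 only.

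The members fell into 52 clusters on 14 chromosomes, with a median gap of 12256.5 bp to the nearest member, and 17 members overlap another one. Of the clusters 23 are pairs, and 15 with 5 or more genes hold 120 members. In 35 clusters every member had a peak in replicate 1, 32 had at least 1 member in both lists, and 4 had no peak in replicate 1. Peaks were thus spread over most arrays and not confined to a few of them.

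The longest array, 15 genes on chromosome 7 from Zfp84 to Zfp146 (29768552 to 30169775), had a peak in replicate 1 at all 15 members and in both lists at 6, namely Zfp84, Zfp30, Zfp940, Zfp27, Zfp14 and Zfp146. Highest fold enrichments in replicate 1 ran from 2.08 at Zfp568 to 16.2 at Zfp30. On chromosome 13 (67038594 to 67553152), 14 of 14 members had a peak in replicate 1 and 8 in both. Most members of this array are candidates for Rsl, the regulators of sex-limited liver genes. By their synonyms in RefSeq 14 members are such candidates, 11 in this array and 3 (Zfp85, Zfp493 and Zfp273) in the next one on the chromosome. Of the 14, a group chosen after its values were seen, 14 had a peak in replicate 1 and 6 in both (42.9%, against 37.3% of all members). Zfp595 had 12.3 and 6.06, Zfp58 had 3.94 and 11.1, and Zfp429 had 13.8 in replicate 1 only, so neighbours differed in state and in order.

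On chromosome 6 (47815536 to 48086986), 7 of 7 members had a peak in replicate 1 and 5 in both. Zfp956 had 24.8 and 6.88, at different sites, and the peak at 24.8 begins 456 bp outside the gene body. Inside the body the highest peak of Zfp956 in replicate 1 was 4.96. Zfp746, known as the parkin substrate PARIS, had 7.95 and 3.26, and Zfp282, known in humans as HUB1, had 9.15 in replicate 1 only. Likewise 7 of 7 members had a peak in replicate 1 and 5 in both on chromosome 7 from Zfp553 to Zfp689 (127233061 to 127449158). Elsewhere whole arrays had peaks in replicate 1 and none in replicate 2, among them the 5 genes from Zfp60 to Zfp850 and the 4 from Zfp141 to Zfp975 on chromosome 7.

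Chromosome 4 was the other extreme. Of its 14 members 4 had a peak in replicate 1 and 1 in both, while on chromosome 13 all 23 had one in replicate 1 and 12 in both, and on chromosome 7 the figures were 70 and 31 of 73. In the chromosome 4 array of 9 genes from Zfp978 to Zfp933 (147124882 to 147849126), Zfp978 had 7.39 and 7.57. The values of Zfp978 belong to different sites, and at the site of the 7.57 replicate 1 had 4.37. Zfp985 had 3.04 and Zfp933 3.68 in replicate 1 only, and 6 genes of the array had no peak. The body of Zfp978 is 267146 bp long as annotated and encloses other members. The 4 clusters with no peak in replicate 1 are pairs: Zfp960 and Zfp97, Zfp947 and Zfp994, Zfp968 and Zfp965, and Zfp987 and Zfp600. Of the 29 members without a peak in either list, 10 lie on chromosome 4, 7 on chromosome 17, 6 on chromosome 2 and 6 elsewhere, Zfp110, a partner of the neurotrophin receptor p75, among the last.

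**Figure D3:**
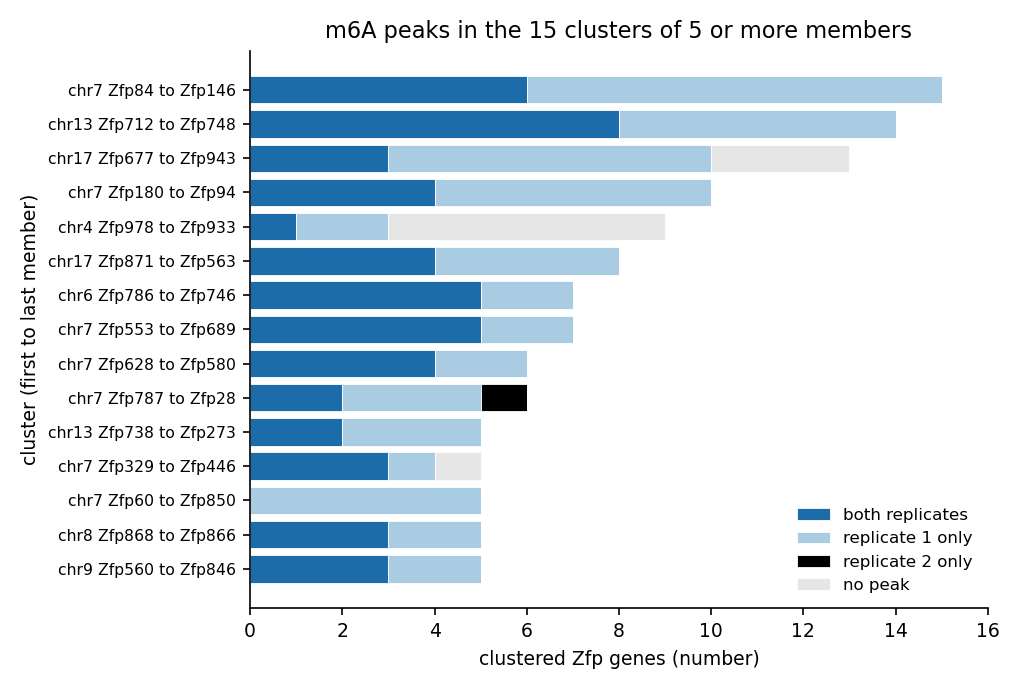
Number of clustered Zfp genes by m6A state in each of the 15 clusters of 5 or more members, named by chromosome, first and last member. Dark blue is a peak in both replicates, light blue in replicate 1 only, black in replicate 2 only and grey no peak; the chromosome 4 array from Zfp978 to Zfp933 is the one with most grey, 6 of 9.

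Members whose promoters share stretches with the promoters of other genes were less often called. RefSeq promoter windows of GRCm38.p6, from 250 bases before to 50 bases after an annotated start, could be matched to 183 members, and each 30-base stretch of them was looked for in the promoters of all other genes, on both strands. In the 125 members with no such stretch elsewhere, 93.6% had a peak in replicate 1 (interval 87.8% to 97.2%) and 44.0% in both lists. In the 24 with up to 30% of their stretches elsewhere the shares were 83.3% and 29.2%, and in the 34 with more than 30% they were 64.7% (interval 46.5% to 80.3%) and 23.5%. Protein-coding genes that are not clustered Zfp genes were also lower with copied stretches, but not in that order, at 43.6%, 23.1% and 34.7% in replicate 1. The median share of copied stretches was 32.5% in the members without a peak and 0% in those with a peak in both lists. Reads from identical copies cannot be placed uniquely, and the sources used here do not say how the authors treated such reads, so the state of close copies is uncertain. Copying was measured in the promoter windows only, and not along the rest of the gene, where most peaks lay. It therefore does not show whether reads under the peaks could be placed, and the part of copying in these shares was not tested.

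Copied promoters are shown by pairs of windows, each read from 5′ to 3′ on the strand of its gene, with the bases that both genes of a pair have in common in capitals. Zfp968 (chr2:175372186-175372485, plus strand), which had no peak, shares 281 of 300 bases without a difference with Gm14295 (chr2:176798350-176798649, plus strand), which had none either.
Zfp968: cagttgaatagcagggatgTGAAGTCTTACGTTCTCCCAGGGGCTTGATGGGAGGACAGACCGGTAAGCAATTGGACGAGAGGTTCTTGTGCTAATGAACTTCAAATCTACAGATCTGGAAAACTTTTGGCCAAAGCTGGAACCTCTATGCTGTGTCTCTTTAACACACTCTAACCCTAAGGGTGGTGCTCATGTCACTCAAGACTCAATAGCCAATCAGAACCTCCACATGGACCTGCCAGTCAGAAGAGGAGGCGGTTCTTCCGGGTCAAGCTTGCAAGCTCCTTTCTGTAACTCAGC
Gm14295: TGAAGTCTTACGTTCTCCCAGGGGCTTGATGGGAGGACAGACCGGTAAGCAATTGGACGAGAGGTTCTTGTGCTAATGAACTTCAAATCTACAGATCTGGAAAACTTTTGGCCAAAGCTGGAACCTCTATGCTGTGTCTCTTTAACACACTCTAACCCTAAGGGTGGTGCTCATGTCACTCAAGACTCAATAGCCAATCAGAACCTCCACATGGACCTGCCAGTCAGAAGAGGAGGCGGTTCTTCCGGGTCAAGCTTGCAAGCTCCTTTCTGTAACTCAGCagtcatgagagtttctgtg
Zfp943 (chr17:21962309-21962608, plus strand) and Zfp758 (chr17:22361213-22361512, plus strand) share 292 bases, with 1 unpaired base in lower case within the run of Zfp943, and yet both had peaks in replicate 1, 2 of them at Zfp943 and 8 at Zfp758.
Zfp943: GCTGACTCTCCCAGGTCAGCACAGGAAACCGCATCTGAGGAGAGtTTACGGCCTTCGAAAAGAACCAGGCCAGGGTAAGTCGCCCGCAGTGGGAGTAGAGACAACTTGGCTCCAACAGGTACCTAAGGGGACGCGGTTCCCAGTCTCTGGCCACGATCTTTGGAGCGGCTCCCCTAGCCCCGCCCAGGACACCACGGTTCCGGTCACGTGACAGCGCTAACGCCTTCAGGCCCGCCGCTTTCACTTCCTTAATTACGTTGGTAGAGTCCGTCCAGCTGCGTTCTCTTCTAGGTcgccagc
Zfp758: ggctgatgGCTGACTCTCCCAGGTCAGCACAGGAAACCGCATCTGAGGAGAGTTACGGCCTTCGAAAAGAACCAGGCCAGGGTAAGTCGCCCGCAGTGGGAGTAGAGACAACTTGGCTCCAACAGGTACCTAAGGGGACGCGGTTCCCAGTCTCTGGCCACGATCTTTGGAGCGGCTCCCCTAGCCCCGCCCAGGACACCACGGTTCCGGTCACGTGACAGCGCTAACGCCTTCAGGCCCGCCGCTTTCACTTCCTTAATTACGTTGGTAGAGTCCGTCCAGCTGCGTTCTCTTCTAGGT
A copied promoter thus went with a peak in some members and without one in others. Zfp869 had 98.5% of its stretches elsewhere and a peak in both lists, while Zfp931 had 100% and none.

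Few peaks lay over the promoter windows themselves. A peak of replicate 1 overlapped 21 of 204 windows of members (10.3%, against 8.20% over all 21263 windows of protein-coding genes), and a peak of replicate 2 overlapped 5 (2.45%, against 1.07%). Zfp553, Zfp764, Zfp688 and Zfp708 had windows under peaks of both lists, and of these Zfp708 and Zfp764 are shown because they are among the most enriched members. The letters GGACT, or AGTCC on the other strand, are in capitals in both windows, since GGACT is the best-known form of the m6A motif. They occurred in 96 of the 204 windows of members (47.1%) and in 46.6% of all windows. Of the 22 windows of members under a peak 9 held them (40.9%), so a match is common and says nothing about a site. The match in the Zfp764 window is AGTCC, so GGACT lies there on the strand opposite to the gene and not in its transcript.
Zfp708, chr13:67097927-67098226, minus strand: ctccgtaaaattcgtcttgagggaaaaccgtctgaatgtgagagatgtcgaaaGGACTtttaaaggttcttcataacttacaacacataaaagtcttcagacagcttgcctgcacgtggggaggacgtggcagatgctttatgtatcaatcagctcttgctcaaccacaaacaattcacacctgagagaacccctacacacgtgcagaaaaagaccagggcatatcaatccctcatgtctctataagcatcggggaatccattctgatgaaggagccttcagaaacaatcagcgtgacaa
Zfp764, chr7:127406773-127407072, minus strand: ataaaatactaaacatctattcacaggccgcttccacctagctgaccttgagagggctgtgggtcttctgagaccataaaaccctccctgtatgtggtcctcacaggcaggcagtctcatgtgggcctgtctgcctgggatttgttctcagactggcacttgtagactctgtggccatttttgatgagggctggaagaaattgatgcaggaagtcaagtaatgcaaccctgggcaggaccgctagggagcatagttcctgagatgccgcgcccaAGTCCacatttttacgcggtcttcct
At Zfp708 the summits lay at −183 bp (replicate 1) and −151 bp (replicate 2) from this annotated start, inside Rslcan18 and 1546 and 1514 bp from its 3′ end. The highest peak counted for Zfp708 may therefore belong to Rslcan18, the next gene on the same strand, and the peak lists cannot tell them apart. RefSeq gives Zfp708 another start as well, whose window (chr13:67081496-67081795) lay under no peak. At Zfp764 the summits lay 111 and 137 bp after the start, with fold enrichments of 17.4 and 7.36 and no other protein-coding gene near. The highest peak counted for Zfp764 in replicate 2, at 17.1, lay elsewhere in its body and also at 9130019O22Rik. Zfp768 had a peak of 15.6 with its summit at −117 bp from the start in replicate 1, and its peak in replicate 2 (6.34) lay elsewhere.

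Along the gene body, summits at clustered Zfp genes gathered in a band 1 to 5 kb inside the 3′ end. In replicate 1, 201 of 346 summits that could be placed on a strand (58.1%, interval 52.7% to 63.3%) lay in this band, against 31.3% of 16391 summits at the other protein-coding genes. In replicate 2 it held 61 of 107 (57.0%, interval 47.1% to 66.5%) against 43.1% of 3950. The last 1 kb held fewer summits at members than elsewhere, 9.54% against 12.8% in replicate 1 and 15.0% against 22.1% in replicate 2. Over all lengths the interval of the members (6.66% to 13.1% and 8.80% to 23.1%) included the value of the other genes in each list. In genes of 10 to 40 kb the last 1 kb held 9.06% (interval 6.003% to 12.99%) against 14.4% in replicate 1. In replicate 2 it held 12.9% (interval 6.64% to 21.98%) against 23.2%. At these lengths the interval of the members lay below the value of the other genes in each list. Deep in the body, more than 10 kb from the 3′ end, the members also had fewer over all lengths, with 15.6% against 41.4% and 12.1% against 21.6%. In genes of 10 to 40 kb they had 16.03% there (interval 11.98% to 20.8%) against 33.6% in replicate 1. In replicate 2 they had 14.1% (interval 7.51% to 23.4%) against 19.5%, where the interval included the value of the other genes. The limits of the band were set after the distances had been seen. Among genes of 10 to 40 kb, to set like lengths side by side, the band held 57.8% of summits at members against 34.0% in replicate 1, and 52.9% (interval 41.8% to 63.9%) against 43.2% in replicate 2, where the interval included the value of the other genes. Isolated Zfp genes were not counted in the band. In genes of 10 to 20 kb in replicate 1, 82.8% of summits at members lay within 5 kb of the 3′ end. Isolated Zfp genes had 74.0% (interval 62.8% to 83.4%) there and the other protein-coding genes 58.8%. In replicate 2 the shares were 80.0%, 68.4% (of 19 summits) and 74.2% in that order. Over all lengths in replicate 1, members had 68.8% within 5 kb (interval 63.6% to 73.6%). Isolated Zfp genes had 48.7% (interval 42.5% to 54.9%) and other genes 46.1%. In replicate 2 the 3 shares were 73.8%, 64.1% and 67.9%. In genes of 20 to 40 kb they were 53.5%, 39.4% and 44.3% in replicate 1, and 51.4%, 47.4% and 63.7% in replicate 2. Members were above isolated Zfp genes each time, with separate intervals only over all lengths in replicate 1. Whether the band is particular to genes with a neighbour was thus not tested.

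**Figure D4:**
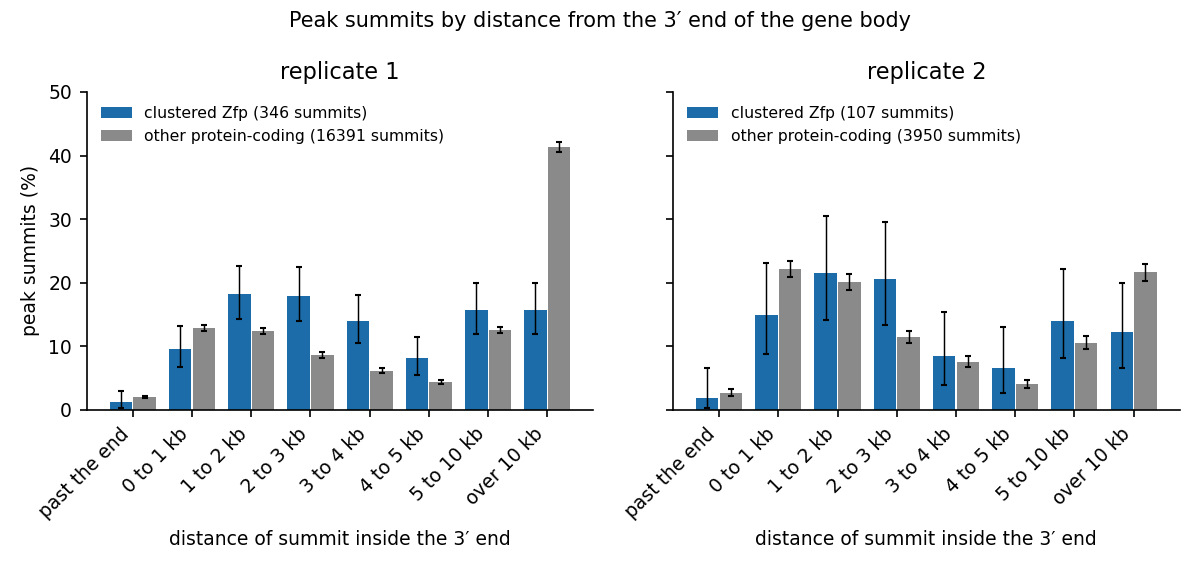
Share of peak summits, in percent, by distance inside the 3′ end of the gene body, for clustered Zfp genes (blue; 346 summits in replicate 1, 107 in replicate 2) and other protein-coding genes (grey; 16391 and 3950), with 95% exact binomial intervals for counting error. In both replicates the blue bars are the taller ones from 1 to 10 kb and the grey bars in the last 1 kb and beyond 10 kb.

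With a window of 3000 bp at the 3′ end, 46.8% of summits at members (interval 41.5% to 52.2%) lay inside it in replicate 1. Other genes had 35.7% and isolated Zfp genes 34.2%. In replicate 2 the shares were 58.9%, 56.3% and 46.9% in that order. The excess over other genes in replicate 2 was within the interval of the members (49.0% to 68.3%). In genes of 10 to 20 kb members had 56.6% (interval 48.1% to 64.8%) in replicate 1, against 46.3% at other genes and 51.9% at isolated Zfp genes. In replicate 2 they had 68.0% (interval 53.3% to 80.5%), against 63.2% and 47.4% (of 19 summits). In genes of 20 to 40 kb the order turned, with 31.7% against 34.8% in replicate 1 and 28.6% against 52.8% in replicate 2. At the 5′ end the same window held 15.2% and 15.6% of summits at isolated Zfp genes over all lengths (replicates 1 and 2). It held 12.1% of summits at members against 19.97% at other genes in replicate 1, and 13.1% against 18.9% in replicate 2. In genes of 10 to 20 kb it held 6.21% against 20.3% and 8% against 12.3%, and in genes of 20 to 40 kb 9.86% against 14.6% in replicate 1 and 11.4% against 8.80% in replicate 2. In replicate 2 the interval of the members included the value of the other genes over all lengths (7.34% to 21.0%) and in both of these bins. The strand came from the promoter table, so members without an entry there were not placed, and exons were not available.

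By gene-body length, the clustered Zfp genes stood farthest above the other protein-coding genes among short genes, and isolated Zfp genes did so as well. Below 10 kb, 16 of 30 members (53.3%) had a peak in both lists, against 10.7% of the other protein-coding genes of that length and 13 of 24 isolated Zfp genes (54.2%). In replicate 1 the shares below 10 kb were 93.3%, 26.5% and 87.5% in that order. From 10 to 20 kb the shares were 43.2% (41 of 95) and 17.9%, from 20 to 40 kb 25.3% (19 of 75) and 17.4%, and at 40 kb and over 25% (3 of 12) and 20.5%. Members and other genes thus ran in opposite order with length. The members fell from the short to the long genes, and the others rose except from 10 to 20 kb to 20 to 40 kb. Isolated Zfp genes had 35.3% from 10 to 20 kb, 39.0% from 20 to 40 kb and 27.0% at 40 kb and over. They too were lower among long than among short genes, so the fall was not shown to be particular to genes with a neighbour. In replicate 1 alone the members went from 93.3% below 10 kb to 66.7% at 40 kb and over, and the others from 26.5% to 55.8%. Isolated Zfp genes went from 87.5% to 83.8%. Only 12 members are 40 kb or longer, and in both upper bins the interval of the members for both lists includes the share of the other genes.

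**Figure D5:**
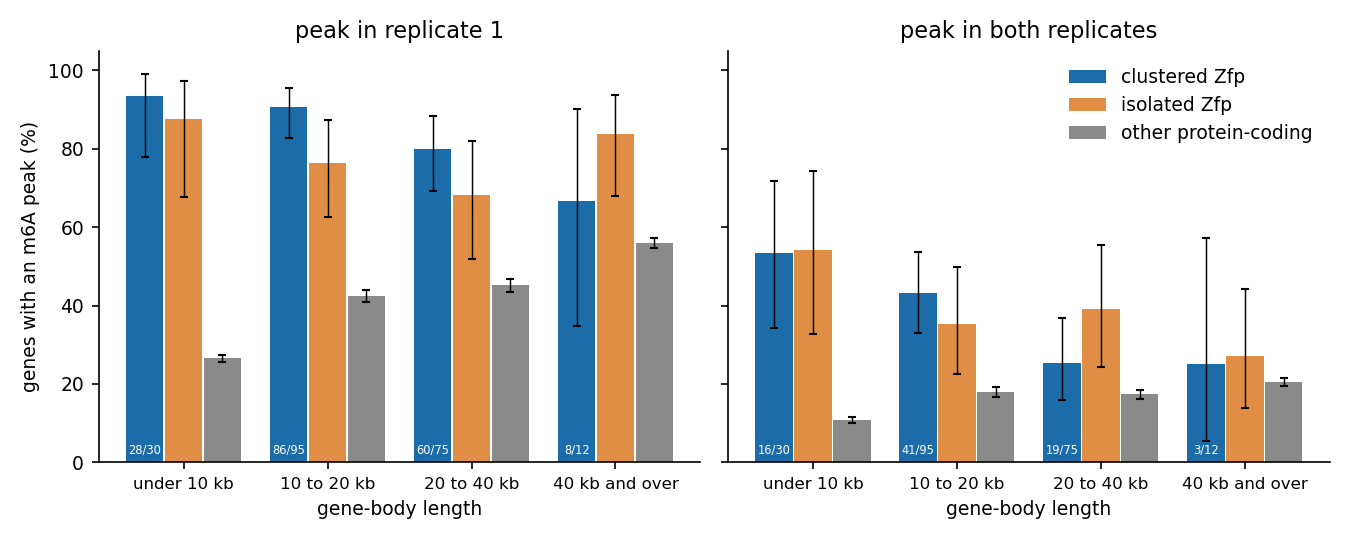
Share of genes with an m6A peak, in percent, in replicate 1 (left) and in both replicates (right), by gene-body length, for clustered Zfp genes (blue, with the number of genes with a peak over the number in the bin), isolated Zfp genes (orange) and other protein-coding genes (grey). Error bars are 95% exact binomial intervals; the distance between blue and grey is widest below 10 kb, 53.3% against 10.7% in both replicates, where orange is at 54.2%.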

How the data were processed

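Per the labels, m6A-RIP-seq was made from wild-type, Mettl3KO and Zc3h13KO mESCs, and only the wild-type peak lists, 1 for each of 2 immunoprecipitations, were used. The authors aligned reads to mm10 and called peaks in each immunoprecipitation against input with MACS2 at default settings, without pooling; the submitters' notes name Bowtie, SAMtools and MACS2 with no versions. Calls were made against input, of which the series has 1 wild-type library; the sources used here do not say what was done about strand and about duplicate and multiply aligned reads. The deposited columns are positions, a score (not used), the ratio of signal to input (fold enrichment) and the −log10 of the p-value (not used) and of the q-value. No deposited −log10 q was below 1.36 in replicate 1 or 1.31 in replicate 2. Depth is unknown, so intervals cover counting error over genes or peaks only.

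Peaks were joined to RefSeq gene bodies of GRCm38, which is mm10, at up to 500 bp, and to every gene in reach. Peaks were called overlapping from 1 bp. Clusters are runs of members with gaps of at most 100 kb. Strand, promoters and symbols came from RefSeq tables. Shares were given with exact binomial (Clopper-Pearson) intervals at 95%, beside the same share over all protein-coding genes, and no test was run, since 1 group of 2 lists allows none. Promoter pairs were aligned with Biopython. The members and lists were chosen with earlier results of these data known. The genes named are, among members in both lists, the top 15 by fold enrichment and the top 10 by −log10 q, taking the lower of the 2 replicates, the 5 members with most peaks in replicate 1, the 5 most enriched of those in replicate 1 only, any member in replicate 2 only, members of known role, Zfp42, Zfp281, and lists of the KRAB co-repressor pathway and of cell markers. Genes named within clusters, in promoter comparisons and as exceptions were added after their values were seen. Assignment and overlap were tested on simulated peaks. Alternatives were other thresholds, distances and overlaps, a reduced replicate 1 list, and each replicate alone. Protein features and motifs within peaks were not analysed here. Python 3.11.15, numpy 2.4.6, pandas 2.3.3, scipy 1.17.1, matplotlib 3.10.9 and Biopython 1.88 were used.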

Additional observations from a re-analysis of the deposited data

How the results depend on the processing

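The number of clustered Zfp genes with a peak in both lists ranged from 63 to 85 under the other thresholds, distances and neighbour rules, and in 64 of 212 members (30.2%, against 10.7% of all protein-coding genes) a peak remained when replicate 1 was reduced to the 5040 peaks of highest −log10 q. Taking each replicate alone gave 80 to 182. The count in replicate 1 fell to 101 (47.6%, against 17.3% of all genes) with the reduced list. The share of replicate 2 peaks at members that overlapped a replicate 1 peak was 53.4% when 50% of both peaks had to overlap, 67.2% with the reduced list and 77.6% among peaks enriched at least 4-fold. The median fold enrichment rose to 6.13 in replicate 1 and 6.51 in replicate 2 with the highest peak of each gene only, and to 6.79 in replicate 2 at a −log10 q of at least 5. The share of summits near the 3′ end was 28.9% and 38.3% (replicates 1 and 2) with a window of 2000 bp and 68.8% and 73.8% with 5000 bp; the construction of these windows sets that order. The other 34 values moved less: counts by under 1.5 times, shares within their counting interval and medians by less than the spread between the 2 replicates. No paired analysis was possible because there is 1 group of 2 peak lists and no comparison between groups. Protein features and motifs in peaks were not run, since they need protein sequences and the sequence under the peaks, which were not used here. Depth is unknown, so the precision of each peak could not be set against it.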
